A study of Homo sapiens with 32 samples.

Results

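Interferon-stimulated genes are the genes a cell switches on when it meets interferon or senses a virus, and 41 of them were followed here through newly made and total RNA of human B cell lines. They were taken from a list of gene names, and no threshold on measured values entered the rule. The genes and their grouping by role were, however, chosen with earlier results of these data known. Each gene was represented by its transcript cluster, the set of probes that the exon array assigns to a gene, where that cluster carried no other symbol. Such a cluster was found for 38 of the 41 genes, among 14207 genes of the array that had one. For all 38 the mean over all arrays, nascent and total together, lay above background. No cluster was matched to STAT2, and USP18 and GBP1 had only clusters shared with another gene, so these 3 were not analysed. The cells were B-lymphoblastoid lines, which are blood B cells made to grow without limit by Epstein-Barr virus. Every culture received 200 µM 4-thiouridine (4sU), a nucleoside that is built into RNA as it is made, for 2 h, and the labelled (nascent) RNA was separated from the total RNA of the same culture and hybridised apart from it. There were 3 independent cultures of each of GM07029, GM10835 and GM12813, with every GM12813 sample hybridised as a technical duplicate that was averaged, and a lone culture for each of 4 further lines, GM07019, GM12812, GM12814 and GM12815. The series takes the nascent/total ratio as a readout of mRNA stability and asks whether lines differ in it. The labels name no interferon treatment, so the levels below are those of unstimulated, virus-transformed cells as far as the labels go.

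Type I interferons bind a receptor pair and act through the kinases JAK1 and TYK2. IRF9 is part of the signalling that ends at the interferon-stimulated response element in the promoters of many genes described here. Their products sense viral nucleic acids, bind or destroy viral RNA, hold viral particles back, attach the ubiquitin-like protein ISG15 to other proteins, or feed back on signalling, and several of them, such as RIGI and IRF7, amplify the response that induced them. In B cells carrying Epstein-Barr virus, viral products are known to act on this pathway.

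The response element is a doubled GAAA, and its core was searched as GAAA, any 2 bases and GAAA, or TTTC, any 2 bases and TTTC where it lay on the other strand, in the 250 bases before and 50 bases after each gene's start (RefSeq, GRCh38.p14). Promoters were available for 34 of the 41 genes, and 21 of these 34 (61.8%) held at least 1 match, against 996 of 27305 promoters of all genes (3.65%). Below is the match nearest the start for 9 of the genes the results below turn on, by a high or low nascent/total ratio or by differences between lines, each with 8 flanking bases on either side, printed along the gene's own strand with the match in capitals.
IFIT1, chr10:89392512-89392537, plus strand: ctttccccTTTCGGTTTCcctaggtt
IFIT3, chr10:89327867-89327892, plus strand: taaattagTTTCACTTTCcagtttcc
IFIH1, chr2:162318688-162318713, minus strand: agagaatcGAAACAGAAAccaaagtc
OAS3, chr12:112938323-112938348, plus strand: aaagaaacGAAACTGAAAgcagggaa
DDX60, chr4:168318788-168318813, minus strand: ggagaaagGAAACCGAAActcccgcc
BST2, chr19:17405737-17405762, minus strand: gggaaactGAAACTGAAAacctaatt
PLSCR1, chr3:146544669-146544694, minus strand: ggaaccggGAAAAGGAAAccgtgttg
EPSTI1, chr13:42992274-42992299, minus strand: gattctgaGAAACCGAAActcagctg
IFI6, chr1:27672268-27672293, minus strand: agagtgcaGAAATAGAAActccgaca

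The match lay on the gene's own strand in 7 of these 9 windows and on the opposite strand in IFIT1 and IFIT3. In IFIH1 it ended 11 bases before the start, in OAS3 133 bases before it. RSAD2, RIGI, PARP9 and IFI35, which also differ widely between lines below, held no match in these 300 bases, which says only that these letters are not in that window. The 38 measured genes include 10 pairs of next neighbours on their chromosome, 19 genes in all, among them OAS1, OAS3 and OAS2 on chromosome 12, IFIT2 with IFIT3 and IFIT1 with IFIT5 on chromosome 10, CMPK2 with RSAD2 on chromosome 2 and DTX3L with PARP9 on chromosome 3.

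Of 21788 clusters on the array, 14167 had a mean over all arrays above background and were tested. Background was a log2 level of 6.40 taken from olfactory receptor genes over arrays of both fractions together, so it is not the floor of either fraction alone. Array medians ran from 7.58 to 7.92 in nascent RNA and from 6.74 to 6.95 in total RNA, so a ratio has meaning only beside other ratios from that culture, and the number of arrays limits its precision. All 8 B cell markers that had a cluster lay above background, against 1 of 8 T and NK cell markers (NKG7), 0 of 5 monocyte and granulocyte markers and 0 of 2 plasmacytoid dendritic cell markers. The nascent array of GM12815 had the lowest mean correlation with arrays of other lines in its fraction (0.917), and in total RNA the 3 GM10835 cultures had the lowest (0.916 to 0.921). The arrays measure whole cultures, so fewer cells expressing a gene and less of its RNA per cell cannot be told apart. The clusters of IFNA2, IFNB1 and IFNG, which encode interferons themselves, lay below background.

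The nascent/total ratio of the interferon-stimulated genes spread widely to both sides of the median transcript. Values are log2 and centred on the median tested cluster of each culture, so that a positive value marks a transcript with more nascent signal, for its total signal, than the median cluster had, which the series takes as faster turnover. Of the 38 genes, 25 passed the test over 7 lines (63.5% of all tested clusters did), 8 of them higher (31.7% of all tested clusters) and 17 lower (31.7% of all tested clusters). This balance depended on the signal level. When the trend of the ratio with signal was removed, IFI16, IFIT1, IRF7, IFI35 and XAF1 lost their lower calls. ISG20 lost its higher call, while OAS1, IFIT3 and IRF9 turned to the higher side, and more genes were called higher. The ratio had the same sign in all 7 lines for 19 of the 38 (50.1% of all tested clusters). The median ratio was -0.17 over the 38 genes and -0.01 over all tested clusters, and the median SD over lines was 0.26 for both. Highest stood BST2, IFIH1, RSAD2, IFI44, SP110 and EIF2AK2, and lowest OAS2, EPSTI1, PLSCR1, IFI44L, MX2 and HERC6. The ratio of each cluster also carries the response of its own probes, so ratios of different genes are set side by side here without a test of their difference.

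**Figure D1:**
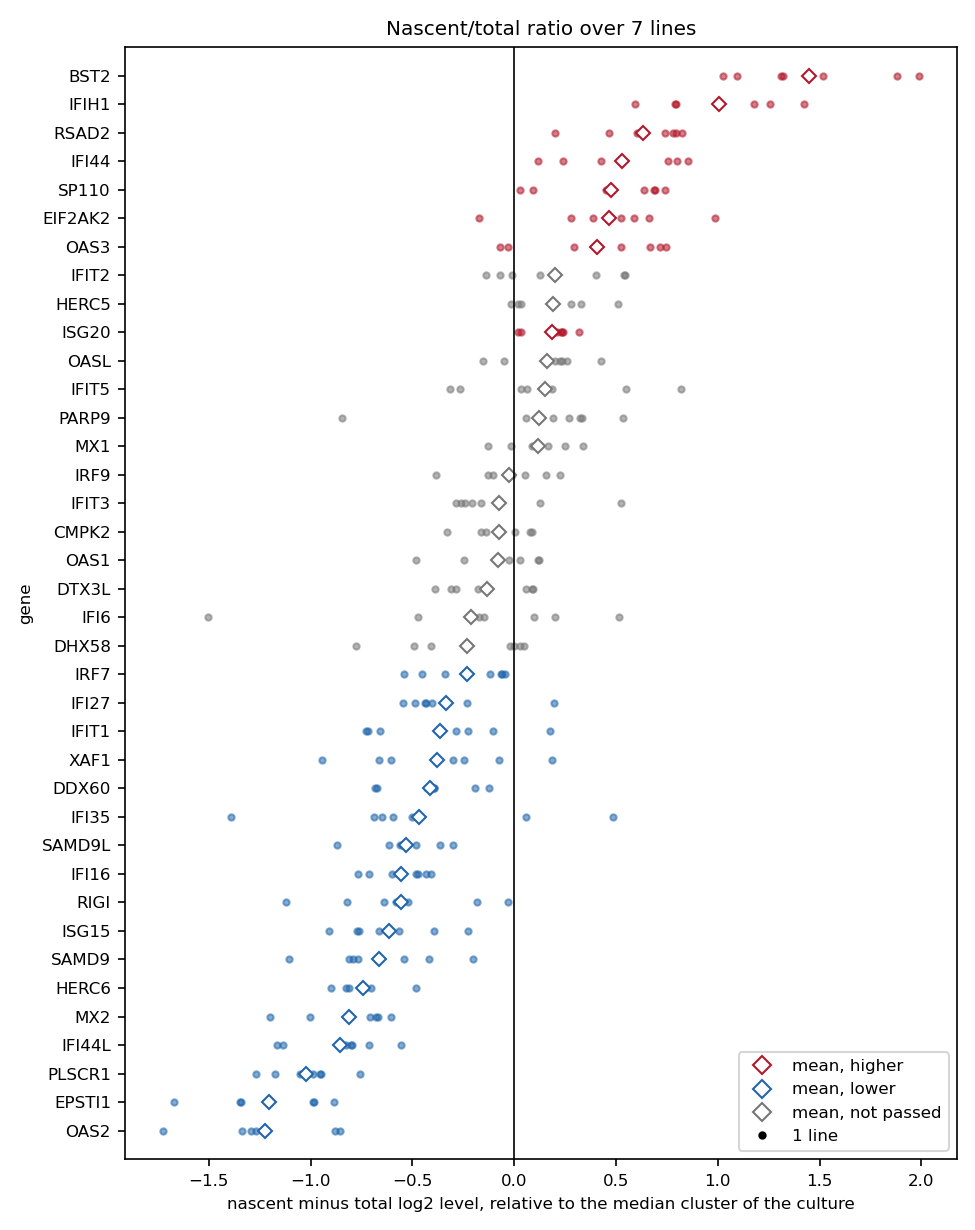
Nascent minus total log2 level of 38 interferon-stimulated genes, relative to the median tested cluster of each culture; each point is 1 of 7 lines and each diamond the mean over lines, coloured by the test. BST2 stands highest at 1.45 and OAS2 lowest at -1.23, and the points of 19 genes lie on one side of 0.

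Sensors of viral RNA, which belong to small families, lay at opposite ends. IFIH1, whose product MDA5 recognises long double-stranded RNA, had a ratio of 0.59 at its lowest (GM07029), 0.99 at the median line and 1.42 at its highest (GM12815), with a mean of 1.00 ± 0.30 (SD, n = 7, adjusted p = 1.07e-05). RIGI, the related sensor of viral RNA ends, ran from -1.12 (GM12812) through -0.58 to -0.03 (GM10835), with a mean of -0.56 ± 0.37 (SD, n = 7, adjusted p = 0.00156). Every line thus had IFIH1 above and RIGI below the median cluster, and the lowest IFIH1 value exceeded the highest RIGI value. DHX58, which encodes LGP2, a helicase of the same family that lacks the signalling domain, had a mean of -0.23 ± 0.33 (SD, n = 7) and did not pass (adjusted p = 0.0846).

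The 2′-5′ oligoadenylate synthetases, which make the second messenger that activates RNase L, were split in the same manner. OAS2 had a ratio of -1.72 at its lowest (GM12815), -1.27 at the median line and -0.86 at its highest (GM10835), a mean of -1.23 ± 0.29 (SD, n = 7, adjusted p = 2.16e-06), the lowest of the 38 genes. Its neighbour OAS3 ran from -0.07 (GM12815) through 0.52 to 0.75 (GM07019), a mean of 0.41 ± 0.35 (SD, n = 7, adjusted p = 0.00933), so the OAS2 and OAS3 values did not overlap. OAS1 at -0.08 ± 0.22 and OASL, a relative that has lost the enzyme activity, at 0.16 ± 0.20 (SD, n = 7 each) did not pass. EIF2AK2, which encodes PKR, the kinase that halts translation on double-stranded RNA, averaged 0.46 ± 0.36 (SD, n = 7, adjusted p = 0.0051), with GM07029 the only line below 0, at -0.17. IFI16, a sensor of DNA, was low in all 7 lines, from -0.77 to -0.41 (mean -0.55, adjusted p = 5.06e-05), a call lost when the trend of the ratio with signal was removed (adjusted p = 0.0826).

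Genes whose products act on viral particles or viral replication held both the highest single ratio and several of the lowest. BST2 encodes tetherin, which ties budding virus to the cell surface, and its ratio ran from 1.03 (GM07029) through 1.32 to 1.99 (GM12814), a mean of 1.45 ± 0.37 (SD, n = 7, adjusted p = 2.78e-06). Its total RNA averaged 6.25, below the background of 6.40, and lay below it in 4 of 7 lines, so the total level behind this ratio is only an upper bound there. The filter took the mean over both fractions, which BST2 passed through its nascent RNA. A high ratio of BST2 was thus favoured in advance, and the test of it adds no support. RSAD2, which encodes viperin, an enzyme that makes a chain-terminating nucleotide, had a median line at 0.74 and a mean of 0.63 ± 0.23 (SD, n = 7, adjusted p = 0.000109). Its value in GM10835, 0.20, rests on total RNA below background and is not an exact ratio. CMPK2, its neighbour and a nucleotide kinase, stood at -0.08 ± 0.15 (SD, n = 7) and did not pass.

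MX1 and MX2, dynamin-like GTPases that trap viral ribonucleoproteins and capsids, also differed. MX2 was low in every line, from -1.20 (GM12815) through -0.71 to -0.60 (GM07029), a mean of -0.81 ± 0.22 (SD, n = 7, adjusted p = 9.76e-06), whereas MX1 averaged 0.12 ± 0.16 (SD, n = 7) and did not pass. PLSCR1, a phospholipid scramblase with antiviral activity, ran from -1.27 (GM12812) through -0.99 to -0.76 (GM12813), a mean of -1.02 ± 0.17 (SD, n = 7, adjusted p = 1.24e-06). The neighbouring SAMD9 and SAMD9L, which restrict poxviruses, were both lower than the median cluster, with means of -0.66 ± 0.30 and -0.53 ± 0.19 (SD, n = 7 each, adjusted p = 0.000165 and 0.000135). ISG20, a 3′-5′ exonuclease, was slightly higher at 0.18 ± 0.11 (SD, n = 7, adjusted p = 0.0414), a call lost in each of 5 fits that left out 1 line, with an adjusted p of up to 0.106. The ISG20 call was also lost when the trend of the ratio with signal was removed (adjusted p = 0.0939).

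Among the IFIT proteins, which bind viral RNA ends that lack host marks, IFIT1 was lower at -0.36 ± 0.35 (SD, n = 7, adjusted p = 0.0154) and lost its call without GM07019 (adjusted p = 0.0508). When the trend of the ratio with signal was removed, IFIT1 stood at -0.08 and did not pass (adjusted p = 0.52). IFIT2 (0.20), IFIT3 (-0.07) and IFIT5 (0.15) did not pass, and DDX60, a helicase that assists RIGI, was lower at -0.41 ± 0.21 (SD, n = 7, adjusted p = 0.00132). In the ISG15 group, ISG15 itself averaged -0.61 ± 0.24 and HERC6, a HECT-domain relative of the ISG15 ligase HERC5, -0.74 ± 0.13 (SD, n = 7 each, adjusted p = 0.000112 and 5.32e-06). HERC6 was among the most even of the genes, from -0.90 (GM10835) through -0.74 to -0.48 (GM12814). HERC5 (0.19), DTX3L (-0.13) and PARP9 (0.12) did not pass.

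Of the remaining 10 genes, 6 were lower and 2 higher than the median cluster. EPSTI1, whose function is less well defined, ran from -1.67 (GM12815) through -1.20 to -0.88 (GM12814), a mean of -1.20 ± 0.27 (SD, n = 7, adjusted p = 1.87e-06). IFI44L ran from -1.17 (GM10835) through -0.80 to -0.56 (GM12815), a mean of -0.86 ± 0.22 (SD, n = 7, adjusted p = 7.11e-06), whereas its neighbour IFI44 was higher than the median cluster in all 7 lines, from 0.12 (GM12812) through 0.52 to 0.86 (GM12814), a mean of 0.53 ± 0.29 (SD, n = 7, adjusted p = 0.000848). IFI27 (-0.33), a mitochondrial and nuclear-envelope protein, and XAF1 (-0.38), a promoter of apoptosis, were lower (adjusted p = 0.00835 and 0.018). IFI27 averaged 6.98 in nascent and 6.54 in total RNA, both near the background of 6.40. Its total RNA lay below background in GM12815 (6.05), so the IFI27 ratio is not exact. XAF1 lost its call without GM07029 (adjusted p = 0.0592) and when the trend of the ratio with signal was removed (adjusted p = 0.0763). IFI6 ran from -1.51 (GM10835) through -0.15 to 0.52 (GM12814), a mean of -0.21 ± 0.65 (SD, n = 7), and did not pass (adjusted p = 0.351). Of the transcription and signalling genes, SP110, a nuclear body protein, was higher, from 0.03 (GM10835) through 0.64 to 0.74 (GM12815), a mean of 0.48 ± 0.30 (SD, n = 7, adjusted p = 0.00203). IRF7, the main inducer of interferon alpha genes, and IFI35, a partner of NMI, were lower at -0.23 ± 0.21 and -0.47 ± 0.60 (SD, n = 7 each, adjusted p = 0.0321 and 0.0346). Leaving out 1 line ended the call of IRF7 in 3 fits and of IFI35 in 5 fits, with adjusted p of up to 0.0949 and 0.0823. Removing the trend of the ratio with signal also ended both calls (adjusted p = 0.124 and 0.153). IRF9 (-0.03) did not pass.

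In levels, GM12815 stood lowest and GM07029 highest over the 38 genes. To set genes beside each other, each was expressed as its deviation from its own mean over 7 lines, in log2 units. In GM12815 all 38 genes lay below their own mean in nascent and in total RNA, with a median deviation of -0.86 in nascent RNA (-0.22 over all tested clusters) and -0.67 in total RNA (-0.11 over all tested clusters). GM12815 was the lowest of the 7 lines for 31 of 38 genes in nascent RNA (45.1% of all tested clusters) and for 25 in total RNA (25.3% of all tested clusters). Nascent OAS3, for example, stood at 8.38 in GM12815 against 9.95 to 10.73 in the other 6 lines. The line has 1 culture, and the nascent array that stood apart is its own, so these are values of that culture.

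The same shift showed in related genes. Genes of a further list of 27 tested interferon-induced genes, such as guanylate-binding and TRIM proteins, had median deviations of -0.75 in nascent and -0.36 in total RNA of GM12815. Plasma cell markers, of which 4 of 4 were tested, had medians of -0.62 and -0.28 there, and B cell markers medians of -0.30 and -0.00. Among the plasma cell markers, SDC1 went the other way in total RNA, at 7.13 against its mean over lines of 6.88. The part of these markers in the shift was not tested. With the deviation of the median tested cluster subtracted, the 38 genes had a median of -0.64 in nascent RNA of GM12815. That alternative was added after the data were seen. With quantile normalisation the medians were -0.59 in nascent and -0.50 in total RNA. The cause of the shift was not tested.

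At the other end stood GM07029, with median deviations of 0.34 in nascent RNA (-0.04 over all tested clusters) and 0.41 in total RNA (-0.01 over all tested clusters). It was the highest line for 14 genes in nascent RNA (11.1% of all tested clusters) and for 18 in total RNA (16.4% of all tested clusters). GM12812 had 0.29 in nascent and 0.36 in total RNA (0.02 and -0.02 over all tested clusters), and GM12814 0.31 and 0.07 (0.04 and -0.09). GM12814 held all 38 genes above their own mean in nascent RNA, but 26 in total RNA. For all tested clusters the share on 1 side of the mean was not computed, here or for GM12815. GM07019, GM10835 and GM12813 lay within 0.13 of 0 in both fractions. Over all tested clusters GM07019 had -0.003 and 0.10, and GM12813 0.03 and 0.01. In GM10835 the medians of the 38 genes were 0.01 and -0.04, against 0.17 and 0.09 over all tested clusters. Single genes in GM10835 ranged from -1.59 (RSAD2) to 0.45 (IFI35) in nascent RNA and from -1.34 (IFIT1) to 1.31 (IFI35) in total RNA. There, with quantile normalisation, the median in nascent RNA was -0.21.

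The range over 7 lines summarises this spread. Its median was 1.45 in nascent RNA for the 38 genes (0.78 over all tested clusters), 1.34 in total RNA (0.79 over all tested clusters) and 0.70 for the ratio (0.73 over all tested clusters). Without GM12815 these medians were 0.86 (0.61), 0.95 (0.72) and 0.58 (0.65). The median range of these genes was thus the wider one in both fractions, with or without GM12815, and the narrower one for the ratio. An F test over all 13 cultures called 36 of the 38 genes in nascent RNA (76.3% of all tested clusters), 35 in total RNA (61.3% of all tested clusters) and 17 for the ratio (39.7% of all tested clusters). As 4 of the 7 lines have 1 culture, the spread in this test came from the 3 replicated lines alone. A lone culture that stood apart, such as that of GM12815, therefore counted as a difference of its line.

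**Figure D2:**
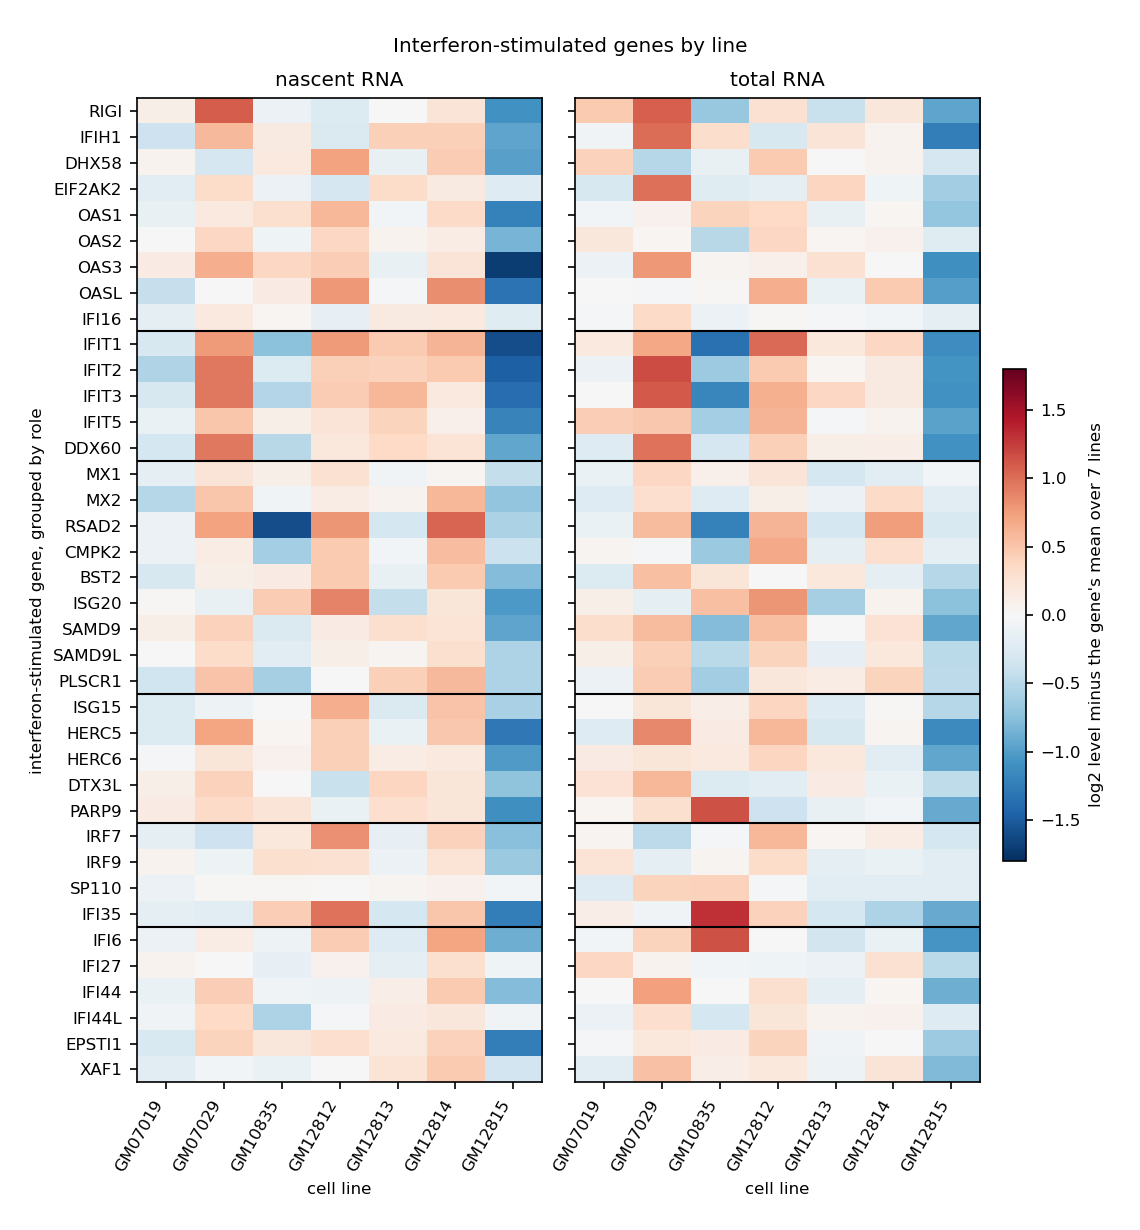
Log2 level of 38 interferon-stimulated genes (rows, grouped by role with black lines) in 7 lines (columns) as the deviation from the gene's own mean, for nascent RNA (left) and total RNA (right); red is above and blue below the mean. The GM12815 column is below 0 for all 38 genes in both fractions, and the GM10835 column holds both low genes (RSAD2, IFIT1, IFIT3) and high ones (IFI35, IFI6, PARP9 in total RNA).

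Between the 3 lines grown as replicate cultures, 29 of the 38 genes differed in nascent RNA (F test, 56.7% of all tested clusters), 32 in total RNA (56.3% of all tested clusters) and 16 in the ratio (25.4% of all tested clusters). Both fractions differed for 27 genes (40.7% of all tested clusters), and of these 24 had the same lowest line and 23 the same highest line in nascent and total RNA. This agreement was not counted over all tested clusters, so it is not read as a trait of these genes. OASL, HERC6, IFI27 and EPSTI1 passed in neither fraction nor in the ratio. The median range of line means was 0.46 in nascent RNA (0.35 over all tested clusters), 0.74 in total RNA (0.45) and 0.39 for the ratio (0.34). A wider range in total than in nascent RNA was seen for 27 of the 38 genes, and for 65.9% of all tested clusters.

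GM07029 held the most of these transcripts. Set against GM10835, 21 genes were higher in nascent RNA (13.7% of all tested clusters) and 5 lower (41.6%), and in total RNA 23 were higher (18.9%) and 7 lower (29%). Set against GM12813, 16 were higher in nascent RNA (5.65%) and 0 lower (12.7%; 1 gene at an unadjusted p under 0.05), and in total RNA 22 were higher (13.7%) and 2, DHX58 and IRF7, lower (10.8%). With the first of each pair of GM12813 duplicate arrays alone, the 22 became 10. Of GM10835 against GM12813, 9 were higher (32.4%) and 15 lower (11%) in nascent RNA, and 7 higher (25.4%) and 12 lower (12.6%) in total RNA. With quantile normalisation these were 5 and 22 in nascent RNA and 6 and 20 in total RNA. The whole array was shifted between GM07029 and GM10835 by a median of -0.16 in nascent and -0.10 in total RNA, while the medians of the 38 genes were 0.34 and 0.53.

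The IFIT genes and DDX60 differed most evenly: all 5 passed in nascent and total RNA. Nascent IFIT1 stood at 11.67, 11.53 and 11.58 in the GM07029 cultures, at 10.07, 10.11 and 10.08 in GM10835 and at 11.35, 11.32 and 11.25 in GM12813. Total IFIT1 stood at 11.04, 11.10 and 11.22 in GM07029, at 9.16, 9.08 and 9.00 in GM10835 and at 10.77, 10.60 and 10.46 in GM12813. No line overlapped another in either fraction, and GM10835 was lowest in both. GM07029 exceeded GM10835 by 1.51 ± 0.06 in nascent RNA (SE, 2.84-fold, adjusted p = 9.19e-09) and by 2.04 ± 0.11 in total RNA (SE, adjusted p = 4.11e-07).

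IFIT3, which stabilises IFIT1 on RNA, showed the widest range of the 38 genes in total RNA over the 3 replicated lines. Its nascent level was 12.23, 12.20 and 12.25 in GM07029, 10.81, 10.69 and 10.75 in GM10835 and 11.86, 11.91 and 11.83 in GM12813, and its total level 11.62, 11.68 and 11.70, then 9.28, 9.38 and 9.53, then 10.94, 10.98 and 10.90 in the same lines. The 3 lines were again separate and in the same order. The difference between GM07029 and GM10835 was 1.48 ± 0.05 in nascent and 2.27 ± 0.09 in total RNA (SE, adjusted p = 5.23e-09 and 6.72e-08). IFIT2 differed by 1.20 and 1.82 and IFIT5 by 0.40 and 1.09 between the same lines in nascent and total RNA, all past the threshold. DDX60 differed by 1.46 ± 0.12 in nascent and by 1.28 ± 0.18 in total RNA (SE, adjusted p = 2e-06 and 0.000169), with GM10835 lowest and GM07029 highest.

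RSAD2 showed the widest range of the 38 genes in nascent RNA over these 3 lines. It stood at 9.28, 8.99 and 8.79 in GM07029, at 6.65, 6.87 and 6.56 in GM10835 and at 8.06, 7.89 and 7.96 in GM12813, so the lines did not overlap and GM10835 lay just above the background of 6.40. GM07029 exceeded GM10835 by 2.32 ± 0.13 (SE, 5.00-fold, adjusted p = 1.63e-07). In total RNA it stood at 7.58, 7.17 and 7.62 in GM07029, at 5.56, 5.58 and 5.85 in GM10835 and at 6.86, 6.40 and 6.45 in GM12813. The GM10835 cultures were all below background, so the fold by which GM07029 was higher was bounded against the background level, at 2.07 or more. That background pools arrays of both fractions, so the bound is approximate. The contrast of the 2 lines was tested on the values as deposited, not on this bound (adjusted p = 1.14e-05). CMPK2, the next gene on the chromosome, differed in the same direction by 0.74 ± 0.07 in nascent and 0.64 ± 0.09 in total RNA (SE, adjusted p = 7.11e-06 and 0.00022).

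**Figure D3:**
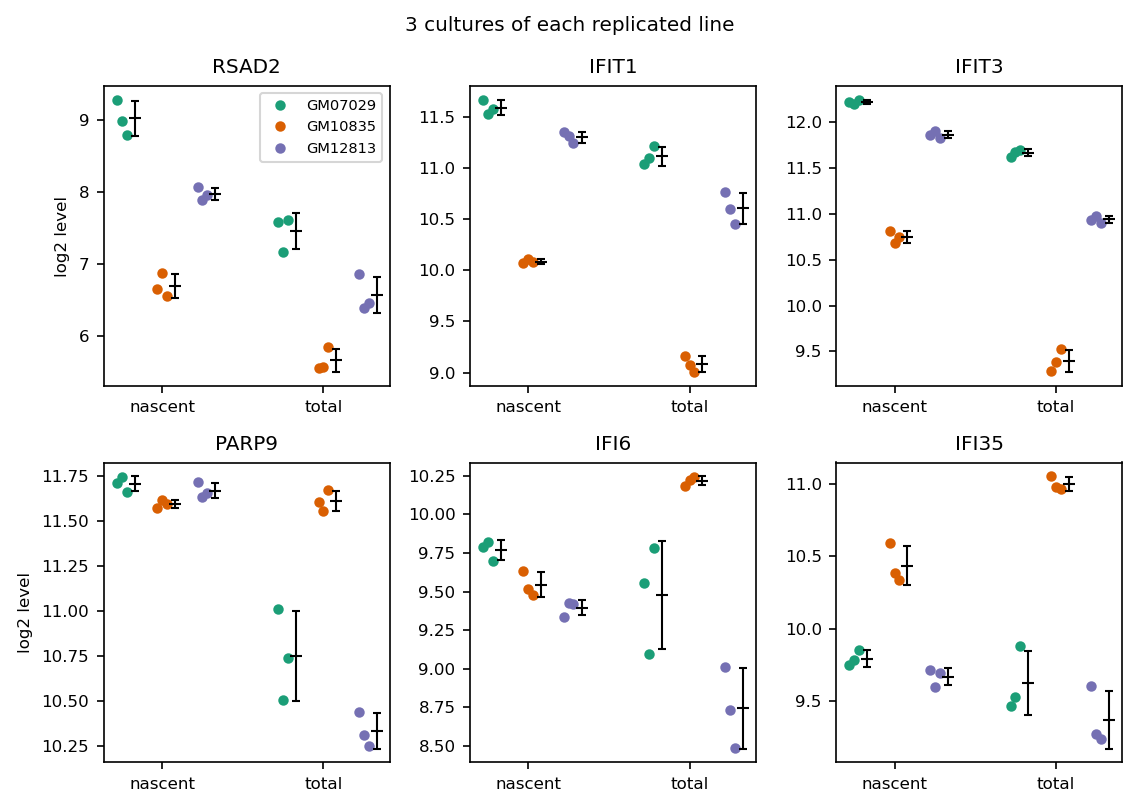
Log2 level of 6 interferon-stimulated genes in each of 3 cultures of GM07029, GM10835 and GM12813, in nascent and total RNA; bars are the mean and SD over cultures, and the vertical axes do not start at 0. RSAD2, IFIT1 and IFIT3 are lowest in GM10835 in both fractions, while total RNA of PARP9, IFI6 and IFI35 is highest there, with nascent PARP9 between 11.57 and 11.75 in all 9 cultures.

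Among the sensors, RIGI was set apart by GM07029. Its nascent level was 9.68, 9.28 and 9.36 in GM07029, 8.13, 8.30 and 8.30 in GM10835 and 8.46, 8.36 and 8.22 in GM12813, and its total level was 9.03, 9.19 and 9.37, then 7.47, 7.34 and 7.53, then 7.95, 7.85 and 7.38 in the same lines. All GM07029 cultures lay above those of GM10835 and GM12813, which overlapped each other. It exceeded GM10835 by 1.20 ± 0.11 in nascent and 1.75 ± 0.15 in total RNA (SE, adjusted p = 6.73e-06 and 8.19e-06), and GM12813 by 1.10 and 1.47. IFIH1 was higher in GM07029 than in GM10835 by 0.42 and 0.69 in nascent and total RNA (adjusted p = 0.00107 and 0.0121). DHX58 ran the other way, with differences of -0.47 and -0.38 between these lines (adjusted p = 0.000585 and 0.0221). In nascent RNA its F test was not passed with quantile normalisation (adjusted p = 0.119).

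The OAS genes did not share an order of lines. OAS3 was highest in GM07029 in both fractions, by 0.28 over GM10835 and 0.78 over GM12813 in nascent RNA (adjusted p = 0.00165 and 7.78e-06). OAS2 was lowest in GM10835, by 0.45 below GM07029 in nascent and 0.53 in total RNA (adjusted p = 9.1e-05 and 0.000579). OAS1 was highest in GM10835, where its total RNA stood at 11.25, 11.20 and 11.21 against 10.80, 10.69 and 10.56 in GM12813, a difference of 0.54 ± 0.10 (SE, adjusted p = 0.00176). EIF2AK2 was highest in GM07029 in total RNA, at 10.46, 10.21 and 10.21, against 9.07, 8.94 and 9.28 in GM10835, a difference of 1.20 ± 0.17 (SE, adjusted p = 0.000176).

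Other effectors low in GM10835 were SAMD9, SAMD9L, PLSCR1 and IFI44L. Total SAMD9 stood at 10.22, 9.87 and 10.04 in GM07029, at 8.69, 8.58 and 8.80 in GM10835 and at 9.61, 9.65 and 9.18 in GM12813, and the lines did not overlap. The difference between GM07029 and GM10835 was 1.35 ± 0.15 (SE, adjusted p = 3.29e-05), against 0.68 in nascent RNA. Nascent PLSCR1 stood at 9.01, 8.94 and 8.84 in GM07029, at 7.64, 7.95 and 7.85 in GM10835 and at 8.93, 8.87 and 8.72 in GM12813, so that GM10835 alone was apart, by 1.11 ± 0.10 from GM07029 (SE, adjusted p = 5.14e-06). Nascent IFI44L was lowest in GM10835 too, at 11.28, 11.54 and 11.55 against 12.39, 12.38 and 12.36 in GM07029, a difference of 0.92 ± 0.07 (SE, adjusted p = 1.31e-06). HERC5 and MX1 were highest in GM07029, above GM12813 by 0.82 and 0.30 in nascent RNA and by 1.15 and 0.70 in total RNA, all past the threshold. MX2 was higher in GM07029 than in GM10835 by 0.57 in nascent and 0.53 in total RNA (adjusted p = 8.25e-06 and 0.00243).

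A second set of genes was highest in GM10835. Total IFI35 stood at 9.47, 9.53 and 9.88 in GM07029, at 11.05, 10.98 and 10.96 in GM10835 and at 9.60, 9.27 and 9.24 in GM12813. GM10835 was apart from both other lines, and the difference of GM07029 from it was -1.37 ± 0.14 (SE, adjusted p = 1.95e-05), against -0.64 ± 0.08 in nascent RNA. Total IFI6, a membrane protein that blocks flavivirus replication, stood at 9.56, 9.09 and 9.78 in GM07029, at 10.19, 10.22 and 10.25 in GM10835 and at 9.01, 8.73 and 8.49 in GM12813, again with no overlap. Its nascent RNA had another order, with 9.79, 9.82 and 9.70 in GM07029, 9.63, 9.52 and 9.48 in GM10835 and 9.34, 9.43 and 9.42 in GM12813.

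PARP9 was high in GM10835 in total RNA alone. Together with DTX3L, its neighbour on the opposite strand, it forms a complex that modifies proteins with ADP-ribose and ubiquitin. Nascent PARP9 stood at 11.71, 11.75 and 11.66 in GM07029, at 11.57, 11.61 and 11.59 in GM10835 and at 11.72, 11.64 and 11.65 in GM12813, and did not pass the F test (adjusted p = 0.164). Total PARP9 stood at 11.01, 10.51 and 10.74 in GM07029, at 11.61, 11.56 and 11.67 in GM10835 and at 10.44, 10.31 and 10.25 in GM12813, with GM10835 above both other lines. Its difference from GM12813 was 1.28 ± 0.12 (SE, adjusted p = 1.73e-05). DTX3L was instead lower in GM10835, with GM07029 exceeding it by 0.40 ± 0.07 in nascent and 0.84 ± 0.12 in total RNA (SE, adjusted p = 0.000374 and 0.00022).

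ISG20 was also highest in GM10835 in both fractions, and IRF7 in nascent RNA. Nascent ISG20 stood at 8.94, 9.11 and 9.01 in GM07029, at 9.59, 9.58 and 9.63 in GM10835 and at 8.73, 8.70 and 8.70 in GM12813, and the difference between GM10835 and GM12813 was 0.89 ± 0.07 (SE, adjusted p = 3.64e-06) in nascent and 1.14 ± 0.17 (SE, adjusted p = 0.000273) in total RNA. The difference of GM07029 from GM10835 was -0.56 ± 0.10 for nascent IRF7 (SE, adjusted p = 0.000531) and -0.39 ± 0.06 for nascent IRF9 (SE, adjusted p = 0.000316), while total IRF9 did not pass (adjusted p = 0.248). With quantile normalisation nascent IRF7 did not pass the F test (adjusted p = 0.0562). The plasma cell markers had median deviations of 0.68 in nascent and 0.37 in total RNA of GM10835 and of -0.34 and -0.35 in GM07029. JCHAIN, XBP1 and PRDM1 followed these medians, but SDC1 went the other way. It stood at 7.48 in nascent and 6.74 in total RNA of GM10835 and at 7.76 and 6.96 in GM07029, against means of 7.70 and 6.88. The part of these markers in the differences was not tested.

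**Figure D4:**
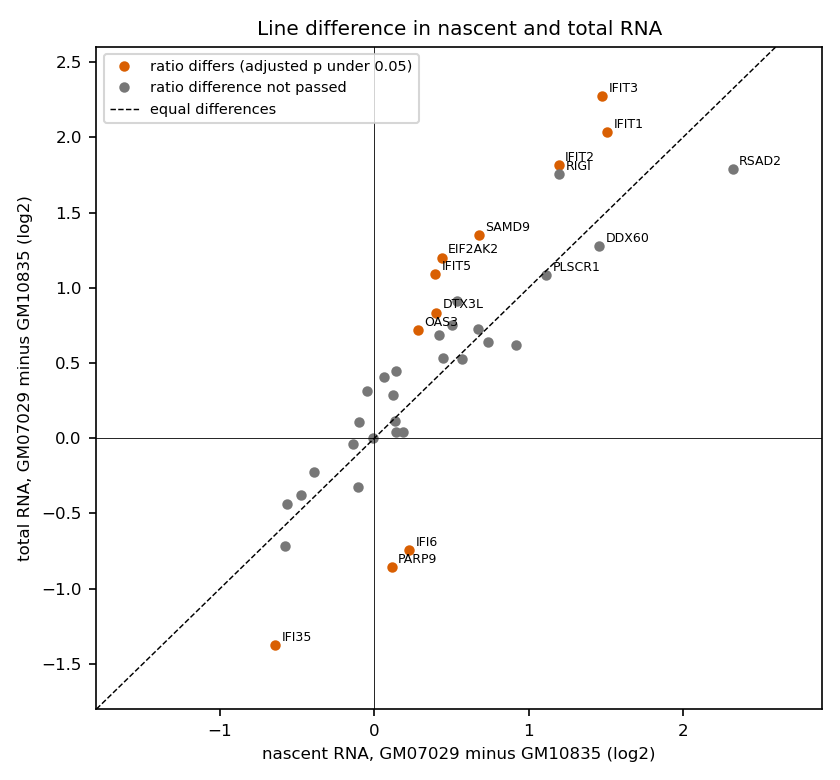
Difference in log2 level between GM07029 and GM10835 of 38 interferon-stimulated genes, in nascent RNA (horizontal) and total RNA (vertical); the dashed line marks equal differences and orange points are genes whose ratio differed between these lines. IFIT1, IFIT2, IFIT3 and SAMD9 lie above the line, PARP9, IFI6 and IFI35 below it, and RSAD2 has the largest nascent difference, 2.32.

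For 16 of the 38 genes the nascent/total ratio itself differed between the 3 lines. Of these, 13 also differed in nascent and in total RNA, and PARP9, SP110 and XAF1 in total RNA without passing in nascent RNA. The widest range was that of PARP9, with ratios of -0.10, 0.47 and 0.20 in GM07029, -0.85, -0.79 and -0.90 in GM10835 and 0.53, 0.54 and 0.52 in GM12813. GM10835 was low in all 3 cultures, by 1.38 ± 0.14 below GM12813 (SE, adjusted p = 0.000129). IFI6 had ratios of -0.57, -0.04 and -0.81 in GM07029, -1.37, -1.56 and -1.59 in GM10835 and -0.42, -0.08 and 0.05 in GM12813, and its difference between GM07029 and GM10835 was 1.03 ± 0.19 (SE, adjusted p = 0.00773). IFI35 followed, at -0.52, -0.52 and -0.74 in GM07029, -1.28, -1.45 and -1.45 in GM10835 and -0.63, -0.45 and -0.42 in GM12813 (0.80 ± 0.12 SE between GM07029 and GM10835, adjusted p = 0.00282).

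The IFIT genes, low in GM10835 in level, showed the opposite sign in the ratio. The IFIT3 ratio was -0.20, -0.25 and -0.17 in GM07029, 0.71, 0.46 and 0.40 in GM10835 and 0.18, 0.15 and 0.04 in GM12813, and the lines did not overlap. The difference of GM07029 from GM10835 was -0.73 ± 0.11 for IFIT3 (SE, adjusted p = 0.00385), -0.46 for IFIT1, -0.55 for IFIT2 and -0.63 for IFIT5, all past the threshold. EIF2AK2 was at -0.16, -0.19 and -0.17 in GM07029 against 0.38, 0.71 and 0.48 in GM10835, a difference of -0.70 ± 0.13 (SE, adjusted p = 0.00725), and SAMD9, OAS3 and DTX3L were the other members lower in GM07029 in this comparison. In total, 3 genes were higher (6.23% of all tested clusters) and 8 lower (7.64%) in GM07029 than in GM10835, 0 higher (0.889%; 4 genes at an unadjusted p under 0.05) and 4 lower (4.91%) than in GM12813, and 5 were higher (10.4%) and 6 lower (12.7%) in GM10835 than in GM12813. With the first of each pair of duplicate arrays alone, the 8 became 2 and the 4 became 0, and leaving out 1 culture gave 3 to 9 in place of the 8, 0 to 7 in place of the 4 and 1 to 6 in place of the 5.

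XAF1 separated GM07029 from GM12813, at -0.71, -1.33 and -0.79 against -0.40, 0.11 and 0.06, a difference of -0.87 ± 0.19 (SE, adjusted p = 0.026), with ratios of -0.52, -0.61 and -0.86 in GM10835. RSAD2, with its large differences in level, had ratios of 0.89, 1.05 and 0.45 in GM07029, 0.27, 0.44 and -0.11 in GM10835 and 0.46, 0.72 and 0.63 in GM12813 and did not pass (adjusted p = 0.0664), the GM10835 total being below background. The number of genes called was sensitive to single cultures: it was 10 without the third GM10835 culture, 8 without the second and 9 without the third GM12813 culture, and 9 with the first of each pair of GM12813 duplicate arrays alone. PARP9, IFI6, IFI35, IFIT2, IFIT3 and OAS3 kept their calls in each of these fits, and IFIT1, SAMD9, DTX3L, IRF7, DHX58, SP110, XAF1 and IFI44 lost theirs in at least 2 of the 9 fits that left out 1 culture, with an adjusted p of up to 0.167 (IFI44). EIF2AK2 and IFIT5 lost theirs with the first duplicate arrays alone (adjusted p = 0.0527 and 0.0659).

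By role, counts are read against the shares of all tested clusters that differed, 56.7% in nascent RNA, 56.3% in total RNA and 25.4% in the ratio. The genes that bind viral RNA had the widest median range of line means, 1.46 in nascent and 1.82 in total RNA over 5 genes, and 4 of the 5 (all but DDX60) differed in the ratio. The 9 other antiviral effectors had medians of 0.68 and 0.91, all 9 differed in nascent RNA and 1 of 9 (SAMD9) in the ratio. BST2 was the least firm of these 9 in nascent RNA, with a call lost in 5 of the 9 fits that left out 1 culture (adjusted p of up to 0.127). The 9 sensors had medians of 0.44 and 0.54, and 3 of them, DHX58, EIF2AK2 and OAS3, differed in the ratio. The 4 tested transcription and signalling genes had medians of 0.48 and 0.55, and 3 of them differed in the ratio. For the 6 less well defined genes the medians were 0.37 and 0.62, and 3 differed in the ratio. Of the 5 tested genes around ISG15, 2 differed in nascent RNA, 4 in total RNA and 2 in the ratio. ISG15 itself did not pass in nascent RNA (adjusted p = 0.102) and did in total RNA (adjusted p = 0.0228), a call lost without the first or the third GM12813 culture (adjusted p of up to 0.0719).

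Other genes of the pathway were described in the same way. Of 39 genes named for interferon signalling and sensing, 33 had a cluster and 29 were tested, and 6 had a higher and 6 a lower ratio over 7 lines (31.7% of all tested clusters in each direction), with a median of -0.13. Highest were IKBKE (0.63), a kinase of IRF3 and IRF7, and IRF1 (0.51), a transcription factor, and lowest UBE2L6 (-1.22) and UBA7 (-0.88), the conjugating and activating enzymes of ISG15. Their median deviations in GM07029 were 0.05 in nascent and -0.08 in total RNA, and in GM12815 -0.44 and -0.13. Between the 3 lines 21 of the 29 differed in nascent RNA (56.7% of all tested clusters), 17 in total RNA (56.3%) and 11 in the ratio (25.4%). Of 27 tested genes among 43 further interferon-induced genes, 7 had a higher and 15 a lower ratio (31.7% of all tested clusters in each direction), with a median of -0.29. SLFN5 (1.67) and RNF213 (0.96) were highest, and TRIM22 (-1.06), an antiviral ubiquitin ligase, and GBP4 (-0.84), a guanylate-binding protein, lowest. Total SLFN5 lay below background in GM07019 (6.15), and GBP4 did so in nascent (5.34) and total RNA (5.06) of GM12815. The ratios of these genes are not exact there. Of these 27 genes, 18 differed between the 3 lines in nascent RNA (56.7% of all tested clusters), 21 in total RNA (56.3%) and 10 in the ratio (25.4%).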

How the data were processed

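Human exon arrays measured nascent and total RNA of 13 cultures of 7 B-lymphoblastoid lines on 32 arrays, 16 per fraction. The values are log2 gene-level levels of transcript clusters as deposited by the authors. Per the labels' protocols, cells received 4sU, labelled RNA was separated from total RNA, and ribosomal RNA was reduced before cDNA synthesis. Per the submitters' processing notes, Affymetrix Power Tools and build hg18 were used; the sources used here do not give the summary algorithm, the version or any normalization across fractions.

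Symbols came from the platform's gene table and were updated by Entrez ID for 14377 of 14405 clusters with 1 symbol; 2365 clusters had several and 5018 none, and none of these were named. No gene described had several clusters of its own. Background was the 95th percentile of 216 olfactory receptor clusters, and the 14167 clusters with a mean above it over all arrays were tested. Technical duplicates were averaged, and nascent minus total log2 was centred on the median tested cluster of each culture. limma 3.58.1 in R 4.3.3 (lmFit, then eBayes with an intensity trend, all tests two-sided) tested 1 value per line against 0 over 7 lines, and compared 9 cultures of 3 lines by a moderated F test and pairwise contrasts. Adjusted p-values are Benjamini-Hochberg over all tested clusters with a threshold of 0.05, and a gene is called higher or lower only past it. The steps were tested on simulated data. The genes, their roles and the gene lists were chosen with earlier results of these data known. Every gene above background is accounted for; values are given for the 6 highest and 6 lowest ratios, the widest ranges between 3 lines (8 in nascent RNA, 8 in total RNA, 6 for the ratio) and each family of related genes. Alternatives changed the filter, the normalization, the centring, the handling of duplicates and the cultures used.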

Additional observations from a re-analysis of the deposited data

Results flagged for a closer look

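In 11 of 114 groups of 7 line values (38 genes in nascent RNA, total RNA and the ratio), 1 line stood apart from the other 6 by Dixon's criterion. That criterion is set so that about 1 of 20 independent groups meets it by chance. These groups are not independent, as they share arrays and each ratio comes from the nascent and total values. The share of all tested clusters that meet the criterion was not computed, so the count is not read as an excess. In 8 of the 11 it was the nascent level in GM12815, the line with the lowest nascent array correlation and the lowest line for 45.1% of all tested clusters. OAS1 (10.29), OAS2 (10.65), OAS3 (8.38), IFIT5 (8.86), HERC6 (7.69), PARP9 (10.26), IRF9 (10.38) and EPSTI1 (7.69) were all lowest there. Total IFI16 was set apart by its high value in GM07029 (11.51), and the PARP9 ratio by its low value in GM10835 (-0.85). The IFI27 ratio was highest in GM12815 (0.20), where total IFI27 lay below background.

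The nascent/total ratio differed between GM07029, GM10835 and GM12813 by limma's F test for 16 genes. The range of line means in log2 units was 1.38 for PARP9, 1.36 for IFI6, 0.89 for IFI35, 0.87 for XAF1 and 0.73 for IFIT3. It was 0.70 for EIF2AK2, 0.69 for OAS3, 0.65 for SP110, 0.63 for IFIT5, 0.61 for SAMD9, 0.56 for IFI44 and 0.55 for IFIT2. The narrowest were IFIT1 (0.46), DHX58 (0.44), DTX3L (0.39) and IRF7 (0.39).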

How the results depend on the processing

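Without centring, 28 genes had a higher and 3 a lower ratio over 7 lines, with a median of 0.60, so the sign of a ratio is only relative to the median cluster. It reversed for RIGI (0.22), DHX58 (0.54), OAS1 (0.69), IFI16 (0.22), IFIT1 (0.41), IFIT3 (0.70), DDX60 (0.36), CMPK2 (0.70), SAMD9 (0.11), SAMD9L (0.24), ISG15 (0.16), HERC6 (0.030), DTX3L (0.64), IRF7 (0.54), IRF9 (0.75), IFI35 (0.30), IFI6 (0.56), IFI27 (0.44) and XAF1 (0.39). With the trend of the ratio on signal removed, 13 genes were higher, OAS1 (0.32), IFIT3 (0.27) and IRF9 (0.26) reversed, and IFI16, IFIT1, ISG20, IRF7, IFI35 and XAF1 lost their calls. Quantile normalisation gave 5 genes higher in nascent RNA and 20 lower in total RNA of GM10835 against GM12813, 3 with a higher ratio in GM07029 than in GM12813, and median deviations of -0.21 (nascent GM10835), -0.59 (nascent GM12815) and -0.50 (total GM12815). The first duplicate arrays alone gave 10 genes higher in total RNA of GM07029 than of GM12813, 9 differing in the ratio, no call for total IFIH1, IFI16, ISG15 and XAF1, and 2 and 0 with a lower ratio in GM07029 than in GM10835 and GM12813. Without the filter on dim clusters, 10 differed in the ratio, with 5 and 0 lower in these contrasts. With a replicate block, 0 had a lower ratio in GM07029 and 3 a higher one in GM10835 than in GM12813. The labels give same-numbered cultures of different lines no link but the number. Deviations of such cultures correlated between -0.46 and 0.39. Differently numbered cultures were not compared, so a shared batch was not tested. Subtracting the median tested cluster, an alternative added after the data were seen like the ranges without GM12815, gave -0.17 (GM10835) and -0.64 (GM12815) in nascent RNA. The causes were not tested. Of single-gene values under all alternatives, 1949 kept their direction and side of the threshold, 104 lost a call and 52 gained 1.

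Leaving out 1 line or culture at a time gave 7 to 9 higher and 14 to 17 lower ratios, with medians from -0.21 to -0.12, and 28 to 31 genes differing in nascent RNA, 31 to 33 in total RNA and 8 to 17 in the ratio. Higher and lower calls were 20 to 22 and 5 to 5 for nascent RNA of GM07029 against GM10835, 13 to 17 and 0 to 1 against GM12813, and 7 to 10 and 11 to 17 for GM10835 against GM12813. In total RNA they were 20 to 23 and 5 to 8, 15 to 23 and 2 to 2, and 7 to 8 and 9 to 16 in the same order, and for the ratio 3 to 4 and 3 to 9, 0 to 1 and 0 to 7, and 1 to 6 and 4 to 7. No alternative cluster of a gene could be tried, as each had 1.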
